A study of Saccharomyces cerevisiae with 4 samples.

Results

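Budding yeast take up sulfate, reduce it to sulfide and build it into homocysteine, from which methionine, S-adenosylmethionine, cysteine and glutathione are made. The genes examined here are the 30 of this pathway named in a list: the sulfate permeases and reducing enzymes, the enzymes of methionine and S-adenosylmethionine synthesis, the transporters of sulfur-containing amino acids, the transsulfuration enzymes that exchange sulfur between homocysteine and cysteine, the first enzyme of glutathione synthesis, the enzymes that use organic sulfur compounds, and the regulators MET4, MET28 and MET32. They were found by gene name in the gene tables of the study, and all 30 were among the 5816 genes counted.

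The RNA came from *Saccharomyces cerevisiae* in 4 libraries, 2 of wild-type cells and 2 of cells with a deletion of CHD1, the gene of a chromatin-remodelling ATPase. Both genotypes were in the BY4741 background, a haploid laboratory strain, and both were harvested in mid-log growth at 30 °C in YPD, a rich medium with glucose, yeast extract and peptone. BY4741 lacks MET17, which encodes the enzyme that joins sulfide to O-acetylhomoserine. Cells of both genotypes therefore depend on sulfur amino acids, such as methionine, from the medium. MET17 had 0 reads in every library, which allows up to between 0.698 and 1.48 CPM by counting error (CPM are counts per 1e6 reads on TMM-scaled library sizes). CHD1 itself had 211 and 396 reads in the wild-type libraries and 7 and 3 reads in the deletion libraries. The labels do not say whether replicates were separate cultures or whether the deletion strain was a single clone, so p-values measure the spread between these libraries only, which may be technical. As each value is a share of its library, a change in RNA per cell cannot be seen.

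The pathway is controlled as a unit. Met4, an activator that does not bind DNA by itself, is brought to promoters by Cbf1 with Met28 and by the related zinc-finger proteins Met31 and Met32. When sulfur amino acids are plentiful, as in rich medium, the ubiquitin ligase containing Met30 keeps Met4 inactive, and the genes for sulfate reduction are expressed at low levels. Many amino acid biosynthesis genes, some of this pathway included, are also activated by Gcn4.

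The libraries held between 2145684 and 4117998 gene reads, and the 30 sulfur genes took 6579 and 9046 reads in wild type versus 11091 and 7166 in the deletion, or 0.307% and 0.320% against 0.269% and 0.276% of the gene reads. Replicates varied by more than read sampling alone gives (chi-square over its degrees of freedom 6.08 for the wild-type pair, 2.46 for the deletion pair). All 30 genes passed the filter on low counts. MET8 reached its level in the deletion libraries alone, and MUP3 and STR3 reached it in 1 of 2 wild-type libraries, so these 3 were tested largely because of their reads in the deletion.

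The series title links CHD1 to elongation factors and to histone methylation on transcribed genes, and the comparison asks which transcripts differ without it. In the cells without CHD1, CYS4 and CYS3, which carry sulfur from homocysteine to cysteine, were lower, as was GSH1, the first gene of glutathione synthesis. GSH1 fell by 0.86, CYS3 by 0.54 and CYS4 by 0.42 on the log2 scale. The call of GSH1 held in each alternative fit, while those of CYS3 and CYS4 were lost in some. GSH2, the second gene of glutathione synthesis, had -0.12, with a 95% interval from -0.35 to 0.12. None of the 10 genes of sulfate uptake and reduction, of the 3 of methionine synthesis or of the 3 regulators passed the test in either direction, and limma-voom also called 0 in each of these steps; at an unadjusted p under 0.05 they held 1, 2 and 1 genes. DESeq2 gave an adjusted p to 3, 1 and 0 genes of these steps and called none of those 4, so it says nothing about most of them. With edgeR's quasi-likelihood test, adjusted over all 5488 genes tested by Benjamini-Hochberg, 3 of 30 sulfur genes (10%) were lower and 0 higher, while among all genes tested 3.06% were lower and 1.68% higher. The median log2 fold change was -0.02 over the 30 genes and 0.004 over all genes tested. At an unadjusted p under 0.05 there were 7 lower and 5 higher, together 40% of the sulfur genes against 19.6% of all genes. DESeq2 gave 10 of the 30 an adjusted p and called 3 of these lower and 0 higher, while limma-voom called 3 lower and 1 higher. With total gene counts in place of TMM, which raised the median of all genes to 0.11, GSH1 alone was lower and MUP3 was higher.

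**Figure D1:**
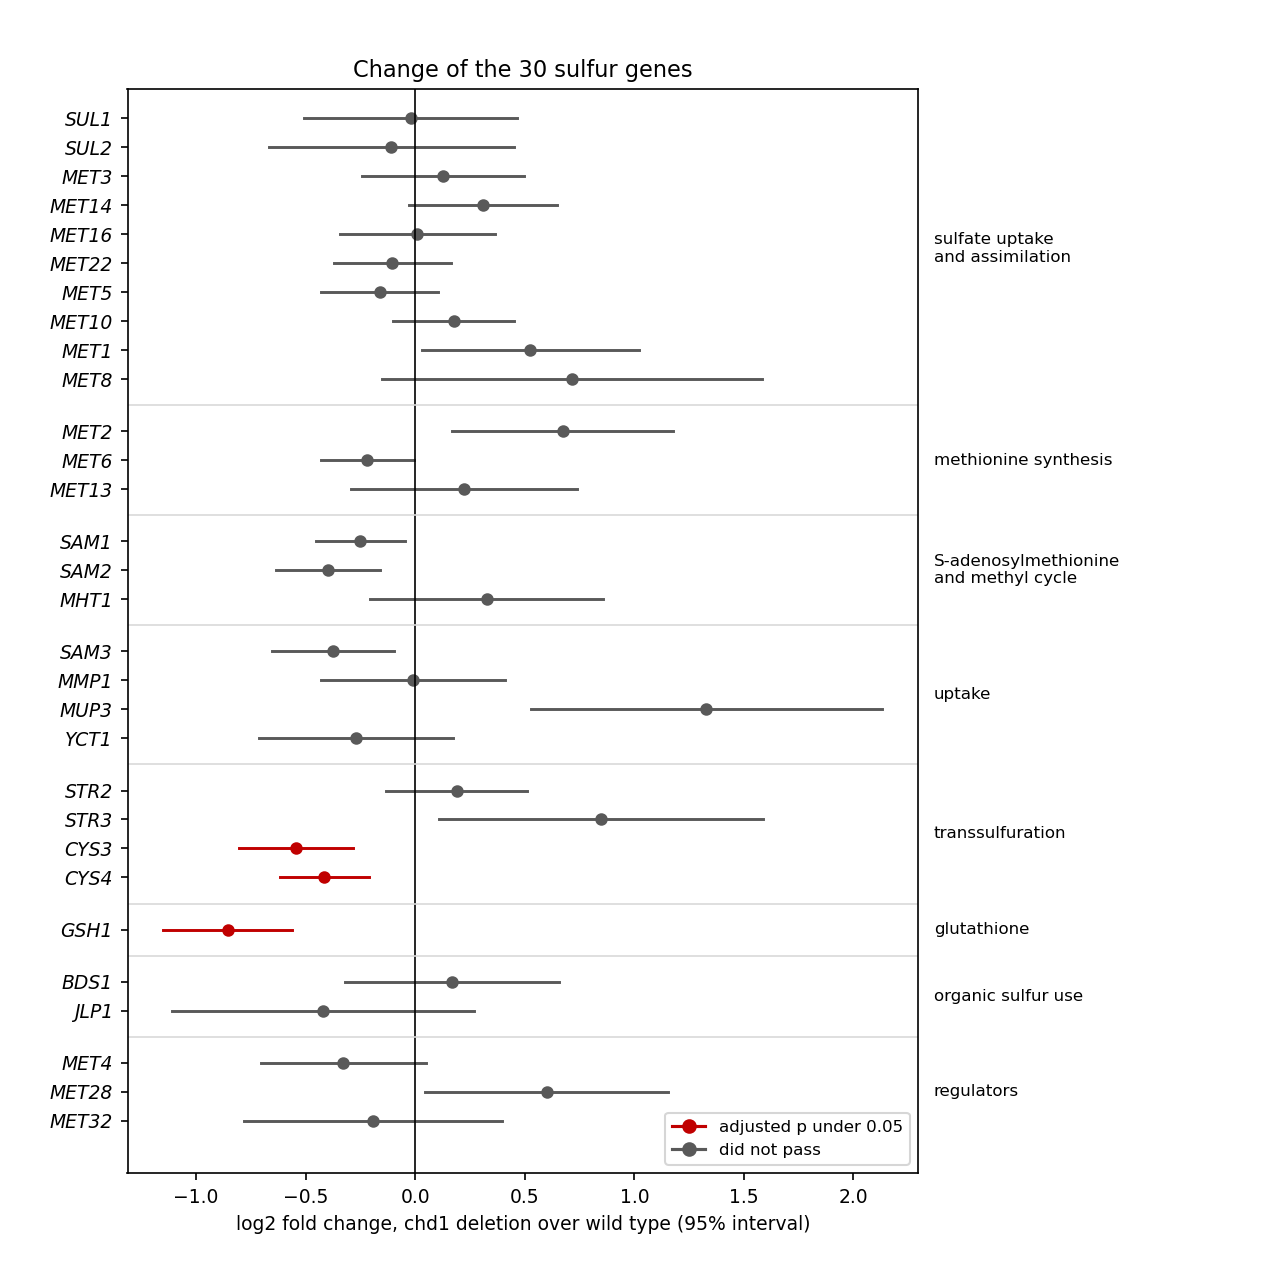
Log2 fold change of each of the 30 sulfur genes, chd1 deletion over wild type (x axis), with its 95% interval from edgeR, grouped by step of the pathway (y axis). The 3 genes with an adjusted p under 0.05, GSH1, CYS3 and CYS4, lie left of 0, and MUP3 has the highest estimate, 1.33, with a wide interval.

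The promoters of these 3 genes are shown with those of MET16, a sulfate reduction gene whose level did not differ detectably, and of MUP3, which had the largest upward estimate. Each runs from 250 bases before the start codon to 50 bases into the gene, 5′ to 3′ on the gene's strand, from the RefSeq R64 genome, whose chromosomes are those of sacCer3. Capitals mark CACGTG, the core bound by Cbf1, AAACTGTGG, which Met31 and Met32 bind, its shorter core CTGTGG, and TGACTC, the core bound by Gcn4, on either strand.
GSH1 (chrX:236307-236606, strand minus): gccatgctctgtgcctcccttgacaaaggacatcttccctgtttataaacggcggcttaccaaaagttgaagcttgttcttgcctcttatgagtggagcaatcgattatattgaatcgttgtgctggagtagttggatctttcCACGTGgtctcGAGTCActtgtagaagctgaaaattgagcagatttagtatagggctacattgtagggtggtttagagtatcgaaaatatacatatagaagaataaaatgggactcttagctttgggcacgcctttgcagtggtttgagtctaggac
CYS3 (chrI:130549-130848, strand plus): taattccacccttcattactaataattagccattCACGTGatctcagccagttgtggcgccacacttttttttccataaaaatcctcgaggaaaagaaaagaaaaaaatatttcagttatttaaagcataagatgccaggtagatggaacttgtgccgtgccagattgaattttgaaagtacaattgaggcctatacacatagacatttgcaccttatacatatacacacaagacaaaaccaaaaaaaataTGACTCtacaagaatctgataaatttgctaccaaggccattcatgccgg
CYS4 (chrVII:798293-798592, strand plus): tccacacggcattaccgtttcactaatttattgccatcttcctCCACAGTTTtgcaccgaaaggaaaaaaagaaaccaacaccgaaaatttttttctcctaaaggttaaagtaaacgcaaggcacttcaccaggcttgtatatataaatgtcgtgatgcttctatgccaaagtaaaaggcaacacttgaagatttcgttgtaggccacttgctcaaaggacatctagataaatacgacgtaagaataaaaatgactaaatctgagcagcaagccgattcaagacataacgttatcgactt
MET16 (chrXVI:877583-877882, strand minus): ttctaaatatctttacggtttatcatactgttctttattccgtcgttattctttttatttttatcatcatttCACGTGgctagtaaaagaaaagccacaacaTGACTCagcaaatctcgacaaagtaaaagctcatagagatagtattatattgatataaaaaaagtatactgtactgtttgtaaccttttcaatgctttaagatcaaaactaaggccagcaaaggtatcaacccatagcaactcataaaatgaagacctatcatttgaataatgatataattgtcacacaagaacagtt
MUP3 (chrVIII:25991-26290, strand plus): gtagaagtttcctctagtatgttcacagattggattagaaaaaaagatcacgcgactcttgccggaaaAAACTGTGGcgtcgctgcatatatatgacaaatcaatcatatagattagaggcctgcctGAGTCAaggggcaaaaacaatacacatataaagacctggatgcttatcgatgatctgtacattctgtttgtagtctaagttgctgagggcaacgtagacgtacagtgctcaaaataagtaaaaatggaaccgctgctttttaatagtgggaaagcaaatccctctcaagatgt

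The GSH1 window holds a Cbf1 core 107 bases before the start codon and a Gcn4 core 96 bases before it. MET16 has the same pair of cores, at 178 and 148 bases before the start codon. CYS3 has a Cbf1 core 216 bases before its start codon, and its only Gcn4 core begins at base 2 of the coding sequence. CYS4 has AAACTGTGG on the opposite strand 207 bases before the start codon, and no Cbf1 or Gcn4 core in this window. MUP3 has AAACTGTGG at 182 bases and a Gcn4 core at 123 bases before the start codon.

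Over the 30 windows of 300 bases, CACGTG was found in 8 (26.7%), against 3.0% of 5793 genes with a window. AAACTGTGG was in 5 (16.7%, against 0.410%), CTGTGG in 9 (30.0%, against 6.96%) and TGACTC in 8 (26.7%, against 8.17%). CTGTGG lies within AAACTGTGG, so those counts overlap, and the windows of the divergent genes MHT1 and MMP1 cover the same sites. In the 500 bases before the start codon CACGTG was in 19 sulfur genes (63.3%, against 6.35% of 5792), among them GSH1, CYS3, CYS4, MET16 and MUP3. Letters alone do not show that a factor binds, and genes that fell and genes that did not carried the same cores.

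GSH1 (YJL101C, chromosome X, 234320 to 236356, minus strand) encodes gamma-glutamylcysteine synthetase, which catalyses the first, rate-limiting step of glutathione synthesis from cysteine and glutamate. It was counted 209 and 395 times in wild type against 287 and 189 in the deletion, or 103 and 142 CPM against 66.8 and 70.6 CPM. Both deletion libraries lay below both wild-type libraries, and the wild-type libraries differed more from each other than the deletion libraries did. The mean level went from 123 ± 27.6 to 68.7 ± 2.71 CPM (SD, n = 2), with a log2 fold change of -0.86 ± 0.14 (SE) and an adjusted p of 0.000928, the smallest among the sulfur genes. Its call held in each alternative fit, with log2 fold changes from -1.05 without wild-type replicate 1 to -0.58 when wild-type replicate 2 was left out.

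CYS4 (YGR155W, chromosome VII, 798543 to 800066) encodes cystathionine beta-synthase, which joins homocysteine to serine and starts the path to cysteine. It was the most abundant of the 30 per length, at 565 ± 48.5 CPM per kb in wild type and 423 ± 9.65 in the deletion (SD, n = 2). It was counted 2060 and 2502 times in wild type against 3134 and 1890 in the deletion, or 1017 and 900.4 CPM against 729.5 and 706 CPM. The groups did not overlap, and the fall, -0.42 ± 0.10 (adjusted p = 0.0176), was the smallest of the 3. Its call was lost without deletion replicate 1 (-0.44, adjusted p = 0.149), without deletion replicate 2 (-0.39, adjusted p = 0.236) and with total gene counts (-0.31, adjusted p = 0.0708).

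CYS3 (YAL012W, chromosome I, 130799 to 131983) encodes cystathionine gamma-lyase, which releases cysteine from cystathionine. It was counted 944 and 1787 times in wild type against 1592 and 1051 in the deletion, or 466 and 643 CPM against 371 and 393 CPM. Both deletion libraries lay below both wild-type libraries, and wild-type replicate 2 stood well above the rest. The mean level went from 555 ± 125 to 382 ± 15.7 CPM (SD, n = 2), a log2 fold change of -0.54 ± 0.12 (adjusted p = 0.0150). Without wild-type replicate 2 it was -0.28 (adjusted p = 0.108). The call was also lost without deletion replicate 1 (-0.50, adjusted p = 0.0635) and with total gene counts (-0.44, adjusted p = 0.0579).

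Ratios of reads within a library do not depend on scaling. CYS3 had 0.458 and 0.714 reads for each CYS4 read in wild type versus 0.508 and 0.556 in the deletion, so the groups overlapped. GSH1 had 0.101 and 0.158 reads for each CYS4 read in wild type versus 0.0916 and 0.10 in the deletion. The deletion values were the lower ones, but deletion replicate 2 lay close to wild-type replicate 1. GSH1 against GSH2, which encodes the second enzyme of glutathione synthesis, gave 0.582 and 0.927 in wild type versus 0.449 and 0.454 in the deletion, without overlap. GSH2 itself had a log2 fold change of -0.12, with a 95% interval from -0.35 to 0.12.

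STR2 and STR3 run transsulfuration the other way, from cysteine to homocysteine, as cystathionine gamma-synthase and cystathionine beta-lyase. STR3 was counted 6 and 15 times in wild type against 34 and 21 in the deletion, or 2.96 and 5.40 CPM against 7.91 and 7.85 CPM. The deletion libraries lay above the wild-type libraries, but the estimate of 0.85 had a 95% interval from 0.11 to 1.59 and an adjusted p of 0.182. STR2 had 39.5 and 38.5 CPM in wild type versus 41.0 and 49.0 CPM in the deletion, with an estimate of 0.19 and an adjusted p of 0.544. CYS3 had 157 and 119 reads for each STR3 read in wild type, but 46.8 and 50.05 in the deletion. These ratios did not overlap, which already follows from CYS3 lying lower and STR3 higher in both deletion libraries. They rest on 6 to 34 STR3 reads, and STR3 was tested largely because of its deletion reads.

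**Figure D2:**
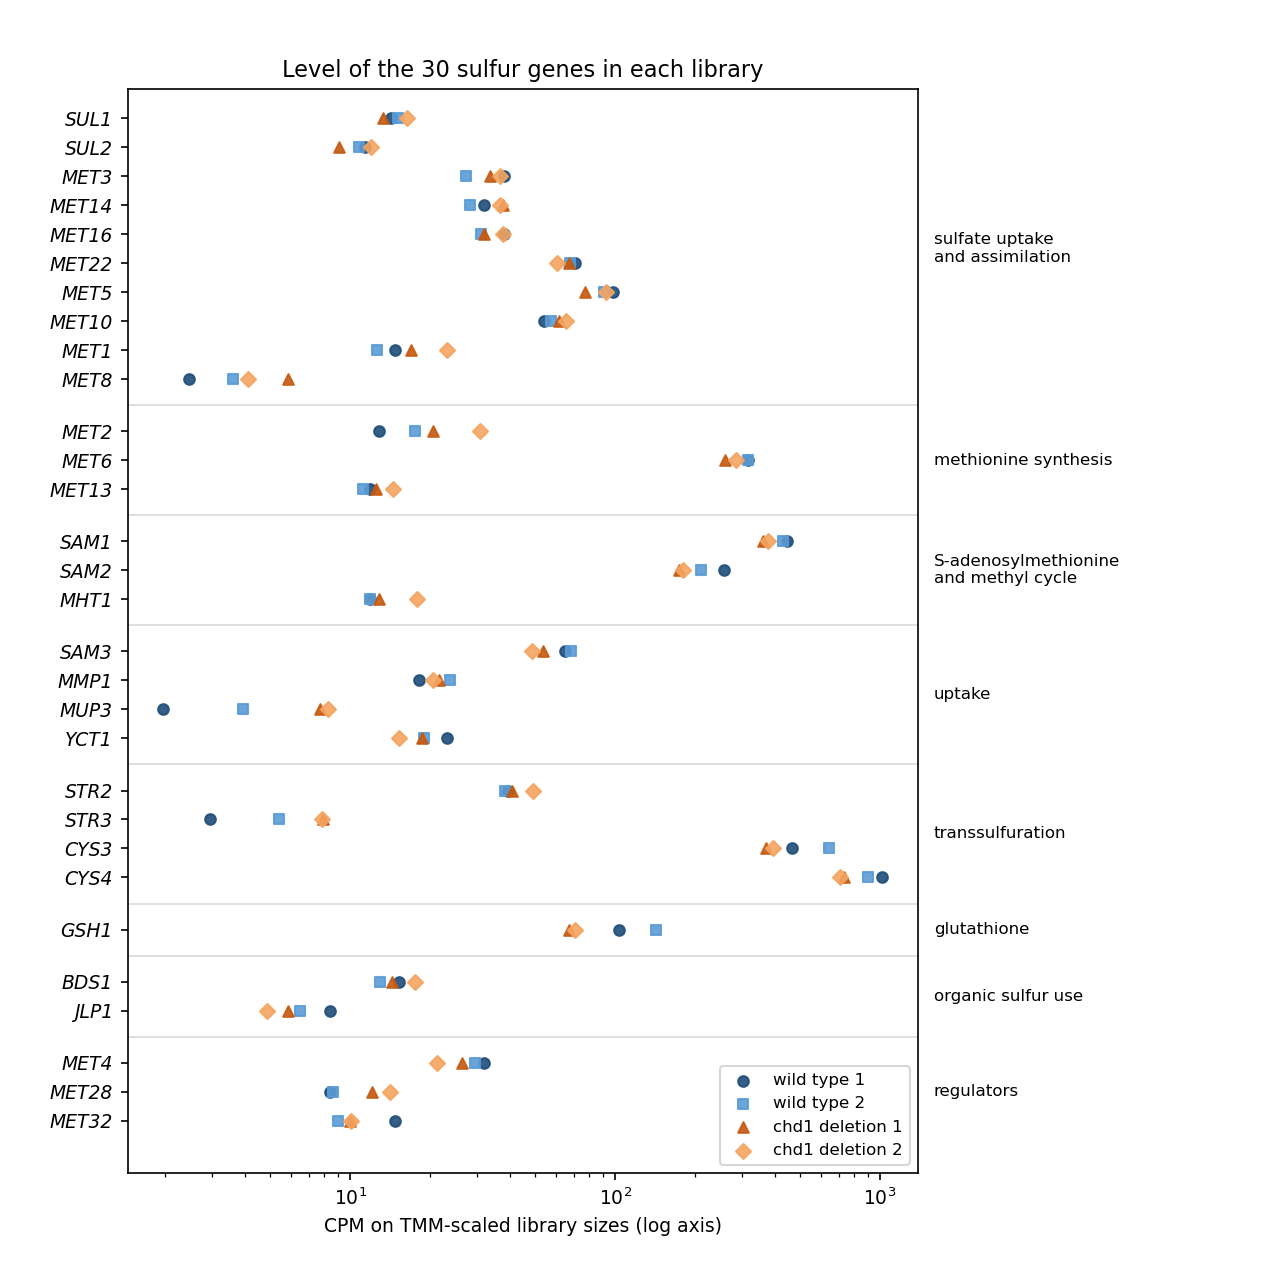
CPM of the 30 sulfur genes (x axis, logarithmic) in each of the 4 libraries, grouped by step (y axis). For GSH1, CYS3, CYS4, SAM1 and SAM2 both deletion libraries lie left of both wild-type libraries, and for MUP3, STR3, MET2 and MET28 they lie right of them.

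Sulfate uptake and reduction did not move as a step. Of its 10 genes, 6 had positive and 4 had negative estimates, with a median of 0.07 and a range from -0.16 to 0.72, and 10 did not pass. SUL1 and SUL2, the sulfate permeases, had estimates of -0.02 and -0.11. MET3, ATP sulfurylase, MET14, the kinase of its product, and MET16, the reductase that yields sulfite, had 0.13, 0.31 and 0.01. For MET16 the 95% interval ran from -0.34 to 0.36, so a change within that range is compatible with these libraries.

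MET5 and MET10 encode the subunits of sulfite reductase, and their estimates were -0.16 and 0.18, with 95% intervals from -0.43 to 0.10 and from -0.10 to 0.45. MET22, which removes the nucleotide by-product of sulfate reduction, had -0.10. MET1 and MET8 make siroheme, the cofactor of sulfite reductase, and had the largest estimates of the step. MET1 was counted 30 and 35 times in wild type against 73 and 62 in the deletion, or 14.8 and 12.6 CPM against 17.0 and 23.2 CPM. The groups did not overlap, but its adjusted p was 0.222 at an estimate of 0.53 ± 0.24. MET8 was counted 5 and 10 times in wild type against 25 and 11 in the deletion, with an estimate of 0.72 and an adjusted p of 0.355.

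In methionine synthesis the estimates went both ways and none passed. MET2, homoserine O-acetyltransferase, was counted 26 and 49 times in wild type against 88 and 83 in the deletion, or 12.8 and 17.6 CPM against 20.5 and 31.0 CPM. The deletion libraries were higher without overlap, and the estimate was 0.67 ± 0.24 (adjusted p = 0.118). It passed without wild-type replicate 2 (0.95, adjusted p = 0.0178) and without deletion replicate 1 (0.99, adjusted p = 0.0189), and its estimate was 0.40 without deletion replicate 2. MET6, the cobalamin-independent methionine synthase, was far more abundant, at 318 and 316 CPM in wild type versus 260.0 and 286 CPM in the deletion, from 645, 878, 1117 and 765 reads. Its estimate was -0.22 ± 0.10 (adjusted p = 0.236). MET13, methylenetetrahydrofolate reductase, had 0.22 with an adjusted p of 0.674.

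SAM1 and SAM2 encode the S-adenosylmethionine synthetases, which turn methionine into the methyl donor of the cell. SAM1 had 446 and 432 CPM in wild type versus 361.5 and 376 CPM in the deletion, from 904, 1200, 1553 and 1007 reads. SAM2 had 258 and 211 CPM in wild type versus 174 and 180.1 CPM in the deletion, from 522, 586, 749 and 482 reads. In both genes the deletion libraries were lower without overlap, with estimates of -0.25 ± 0.10 (adjusted p = 0.146) and -0.40 ± 0.11 (adjusted p = 0.0517). SAM2 passed in 4 alternative fits, among them that with RLE size factors (adjusted p = 0.0419). SAM2 did not pass with total gene counts (adjusted p = 0.141), a minimum count of 50 (0.0613), DESeq2 (0.0799) or limma-voom (0.0517). Nor did it pass without wild-type replicate 1 (estimate -0.25), deletion replicate 1 (-0.38) or deletion replicate 2 (-0.42). The coding sequences of SAM1 and SAM2 are 82.8% identical, with identical stretches of up to 59 bases, so how their reads were divided is uncertain. SAM1 had 1.73 and 2.05 reads for each SAM2 read in wild type versus 2.07 and 2.09 in the deletion. MHT1, which makes methionine from S-methylmethionine and homocysteine, had 11.8 and 11.9 CPM in wild type versus 12.8 and 17.9 CPM in the deletion, with an estimate of 0.33 and an adjusted p of 0.516.

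Among the transporters, MUP3 had the largest estimate of the 30 genes. MUP3, a low-affinity methionine permease, was counted 4 and 11 times in wild type against 33 and 22 in the deletion, or 1.98 and 3.96 CPM against 7.68 and 8.22 CPM. The groups did not overlap, and the estimate was 1.33 ± 0.38 (adjusted p = 0.0530). It passed with RLE size factors (adjusted p = 0.0477), with total gene counts (adjusted p = 0.0374), with limma-voom (adjusted p = 0.0481) and without wild-type replicate 2 (1.99, adjusted p = 0.0344). It did not pass without wild-type replicate 1 (0.99, adjusted p = 0.162) or without either deletion replicate. MUP1, the high-affinity methionine permease gene, had 81.0 and 87.1 CPM in wild type versus 86.4 and 84.5 CPM in the deletion, and its 95% interval ran from -0.23 to 0.27.

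SAM3 and MMP1 are related permease genes, for S-adenosylmethionine and for S-methylmethionine, and their coding sequences are 67.9% identical. SAM3 was counted 131 and 190 times in wild type against 230 and 130 in the deletion, or 64.7 and 68.4 CPM against 53.5 and 48.6 CPM. Its estimate was -0.38 ± 0.13 with an adjusted p of 0.111. MMP1 was counted 37 and 66 times in wild type against 93 and 55 in the deletion, with overlapping levels of 18.3 and 23.8 CPM against 21.6 and 20.6 CPM and an estimate of -0.01. YCT1, a cysteine transporter, had -0.27 with an adjusted p of 0.516. BDS1, an alkylsulfatase, and JLP1, a sulfonate dioxygenase, release sulfur from organic compounds and had 0.17 and -0.42, neither past the test. BDS1 was counted over 1204 bases, while its coding sequence in R64 has 1941, so its level per length is uncertain.

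The regulators were expressed at low levels, and none passed. MET4 was counted 65 and 82 times in wild type against 114 and 57 in the deletion, or 32.1 and 29.5 CPM against 26.5 and 21.3 CPM, with an estimate of -0.33 ± 0.18 (adjusted p = 0.323). MET28 was counted 17 and 24 times in wild type against 52 and 38 in the deletion, or 8.39 and 8.64 CPM against 12.1 and 14.2 CPM, with an estimate of 0.60 ± 0.26 (adjusted p = 0.213). MET32 was counted 30 and 25 times in wild type against 43 and 27 in the deletion, or 14.8 and 9.0 CPM against 10.01 and 10.1 CPM, with overlapping groups and an estimate of -0.19. For MET4 and MET28 the groups did not overlap, with MET4 lower and MET28 higher in the deletion.

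The steps took different shares of the pathway's reads. Transsulfuration held 47.0% and 48.8% of the reads of the 30 genes in wild type versus 44.5% and 43.2% in the deletion, and glutathione synthesis, here GSH1 alone, 3.18% and 4.37% against 2.59% and 2.64%. Sulfate uptake and reduction held 11.5% and 10.6% in wild type versus 13.7% and 14.4% in the deletion. Methionine synthesis held 10.6% in each wild-type library versus 11.4% and 12.4% in the deletion, but its summed level was lower there, at 343 and 345 CPM in wild type against 293 and 331 CPM. In these 4 steps the groups did not overlap, nor in organic sulfur use, at 0.730% and 0.597% against 0.784% and 0.837%. The share of the S-adenosylmethionine genes, 22.0% and 20.1% against 21.3% and 21.5%, overlapped. So did that of the transporters, 3.33% and 3.54% against 3.93% and 3.46%. Regulators, at 1.70% and 1.45% against 1.88% and 1.70%, met at 1.70%. As the shares of a library add to 100%, they are not separate results. Summed levels of sulfate uptake and reduction were 373 and 345 CPM in wild type versus 354 and 385 CPM in the deletion and overlapped. The higher share of sulfate uptake and reduction therefore went with lower sums elsewhere, above all in transsulfuration, at 1525 and 1587 CPM against 1149 and 1156 CPM. Most of the transsulfuration sum comes from CYS4 and CYS3, so it restates their fall. STR2 and STR3, the other genes of transsulfuration, had positive estimates, 0.19 and 0.85.

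**Figure D3:**
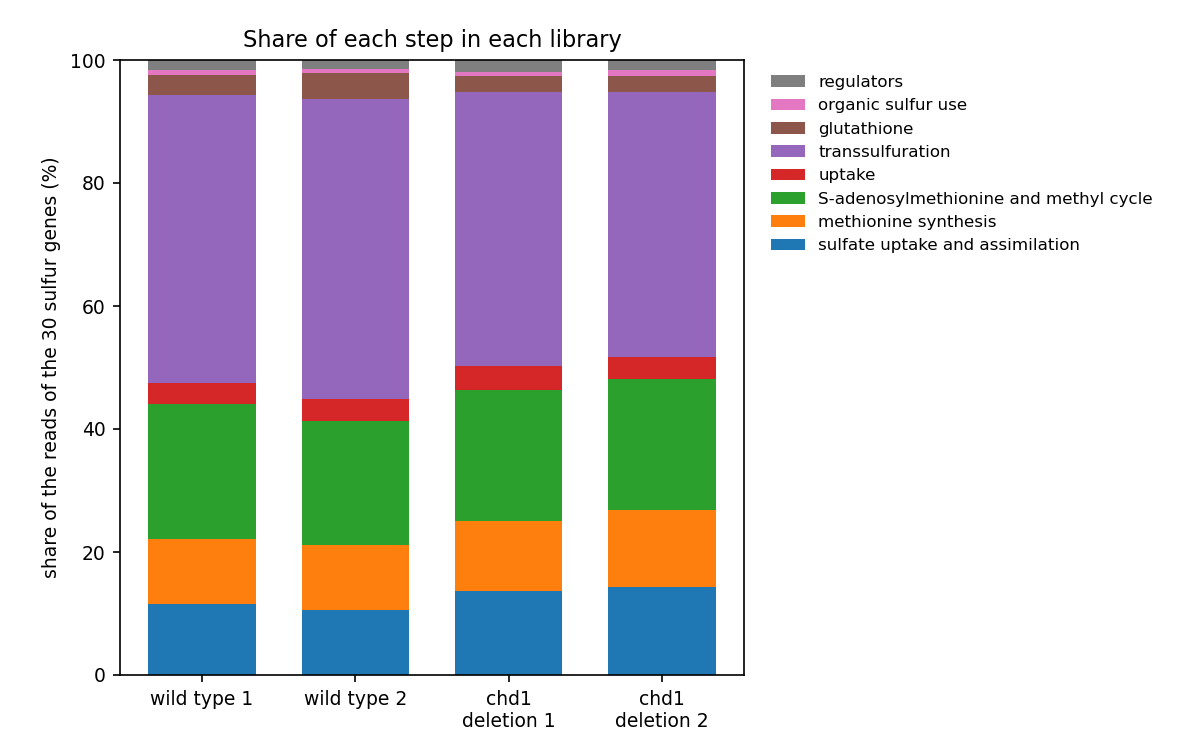
Share of each pathway step in the summed reads of the 30 sulfur genes (y axis, percent) in the 4 libraries (x axis). Transsulfuration takes 43.2% to 48.8% and sulfate uptake and reduction 10.6% to 14.4%.

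Across the 30 genes the more abundant ones tended to have the lower estimates. In wild type the order by level per length was CYS4 (565 CPM per kb), CYS3 (414), SAM1 (298), SAM2 (157), MET6 (122), MET22 (57.8) and GSH1 (52.8). Neighbours in this order did not overlap between wild-type libraries, except MET22 and GSH1, with SDs of 1.74 and 11.9 CPM per kb. Each of these genes had a negative estimate. Below them MET14 and MET16 (41.5 and 37.5 CPM per kb), whose wild-type libraries overlapped, had positive estimates, 0.31 and 0.01. The lowest 3, MUP3 (1.70 CPM per kb), STR3 (2.148) and MET8 (2.76), had positive ones, but they were tested largely because of their deletion reads. Just above these, SUL2 (3.82 CPM per kb) had -0.11 and MET13 (5.01) had 0.22. Split at the median of the mean level over the 4 libraries, the 15 lower genes had 8 positive and 7 negative estimates. The 15 genes at or above that median had 6 positive and 9 negative ones. Spearman's rho between the mean level per length over the 4 libraries and the log2 fold change was -0.54 across the 30 genes and -0.24 across all 5488 genes tested. Genes are not independent, share libraries and depth, and enter both measures with the same reads, and the filter admits the lowest genes through the group where they are higher. The part of depth and of the filter in this relation was not tested.

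**Figure D4:**
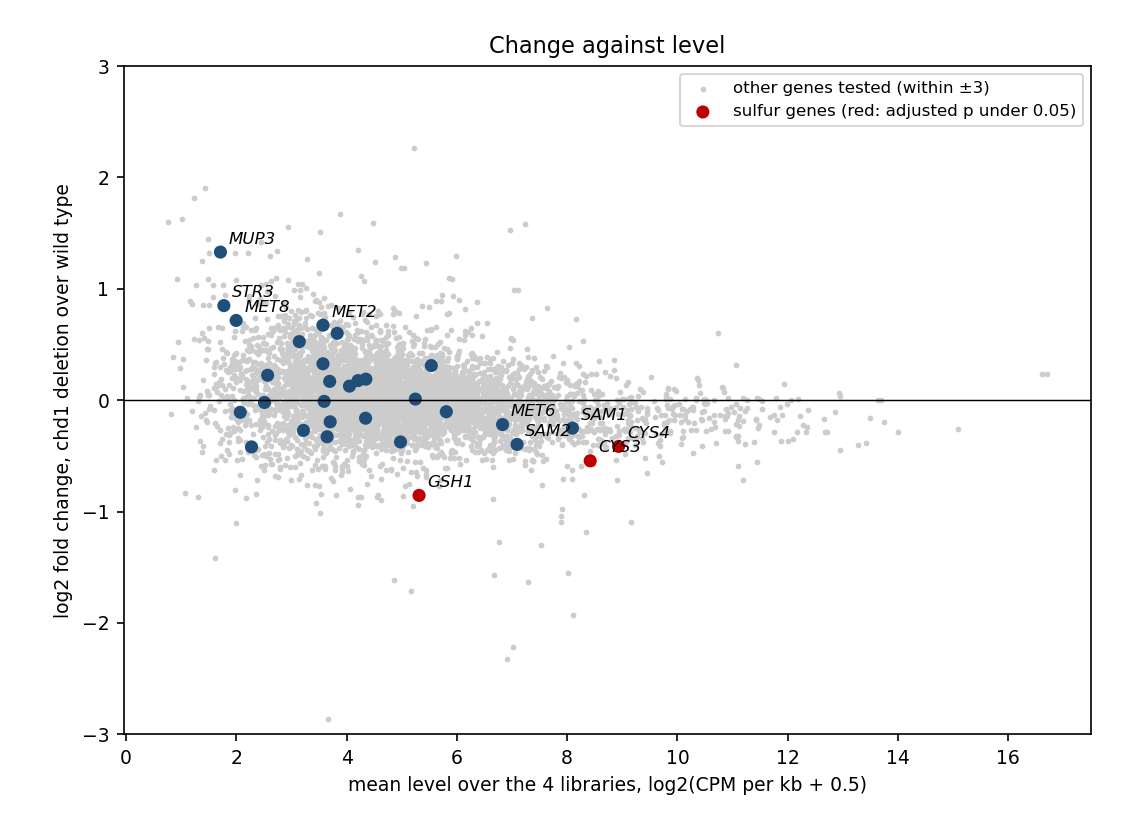
Log2 fold change, chd1 deletion over wild type (y axis), against the mean level over the 4 libraries as log2 of CPM per kb plus 0.5 (x axis), for the 30 sulfur genes (large points, red where the adjusted p is under 0.05) and the other genes tested (grey, shown within ±3). The abundant CYS4, CYS3, SAM1, SAM2 and MET6 lie below 0 and the rare MUP3, STR3 and MET8 above it. Other genes of low level, such as SUL2 and MET13, lie on both sides of 0.

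Counted as groups that do not overlap, 11 of the 30 genes (36.7%) had both deletion libraries above both wild-type libraries and 11 (36.7%) had them below, against 24.9% and 24.4% of all genes tested. The other 8 overlapped. Those below were MET22, MET6, SAM1, SAM2, SAM3, YCT1, CYS3, CYS4, GSH1, JLP1 and MET4. Those above were MET14, MET10, MET1, MET8, MET2, MET13, MHT1, MUP3, STR2, STR3 and MET28. Among these, MET8, MUP3 and STR3 were tested largely because of their deletion reads, so they lend no support to the share above. No permutation test of 2 libraries against 2 can give a two-sided p below 0.333, so non-overlap in a single gene is a weak statement.

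Position in the genome grouped some of the genes. MHT1, MMP1, JLP1 and YCT1 lie near each other at the left end of chromosome XII, between 16639 and 31704, and MHT1 and MMP1 are transcribed away from each other across 342 bases. Their estimates, 0.33, -0.01, -0.42 and -0.27, did not share a direction. These 4, with BDS1, SAM3, MUP3 and SUL1, are the 8 sulfur genes within 35000 bases of a chromosome end, and 0 of the 8 passed the test, although 2 had an unadjusted p under 0.05. With 1.68% of all genes called higher, 3.06% called lower and 19.6% at an unadjusted p under 0.05, these counts are near the background for so few genes. Limma-voom called MUP3, and DESeq2 gave an adjusted p to SAM3 alone, which it did not call. For 10 of the 30 genes, MUP3, STR3, SAM1 and MET28 among them, the counted transcript exceeds the coding sequence by more than the gap to the nearer neighbour, so reads near the edge could belong to that neighbour. This was not so for GSH1, CYS3 and CYS4, but the neighbours' own lengths beyond the coding sequence were not counted, so the comparison cannot decide for them.

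Another 32 genes around the pathway were listed apart from the 30, and 30 of them could be tested. Of these 4 were lower, 0 were higher and 26 did not pass, and 11 had an unadjusted p under 0.05, at a median of -0.16. Over all genes tested 3.06% were lower, 1.68% were higher and 19.6% had an unadjusted p under 0.05. This list was chosen with earlier results of these data known, so setting its counts beside those shares is not a test. DESeq2 gave 17 of these genes an adjusted p and called 3 lower and 0 higher, and limma-voom called 4 lower and 0 higher. OPT1, a glutathione transporter gene, was counted 116 and 199 times in wild type against 159 and 90 in the deletion, or 57.3 and 71.6 CPM against 37.0 and 33.6 CPM. It fell by 0.87 on the log2 scale (adjusted p = 0.00145) and kept its call in each alternative fit that gave it an adjusted p. GLR1, which encodes glutathione reductase, went from 291 and 274 CPM to 216 and 203 CPM (-0.43, adjusted p = 0.0227).

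The other 2 clear the products of methylation. SAH1, S-adenosylhomocysteine hydrolase, went from 775 and 746 CPM to 585 and 532 CPM (-0.44, adjusted p = 0.0120), and ADO1, adenosine kinase, from 1818 and 1757 CPM to 1397 and 1293 CPM (-0.41, adjusted p = 0.0158). Neither GLR1 nor SAH1 nor ADO1 passed with total gene counts or without either deletion replicate. For total gene counts the adjusted p-values were 0.0858, 0.0561 and 0.0703 in that order. Among the factors that act on the pathway, CBF1 had 58.3 and 63.7 CPM in wild type versus 44.2 and 47.1 CPM in the deletion (-0.43 ± 0.14, adjusted p = 0.0743). MET31 and MET30 had estimates of 0.29 and -0.32 with adjusted p-values of 0.550 and 0.297. GCN4 had -0.19 with an adjusted p of 0.281.

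**Figure D5:**
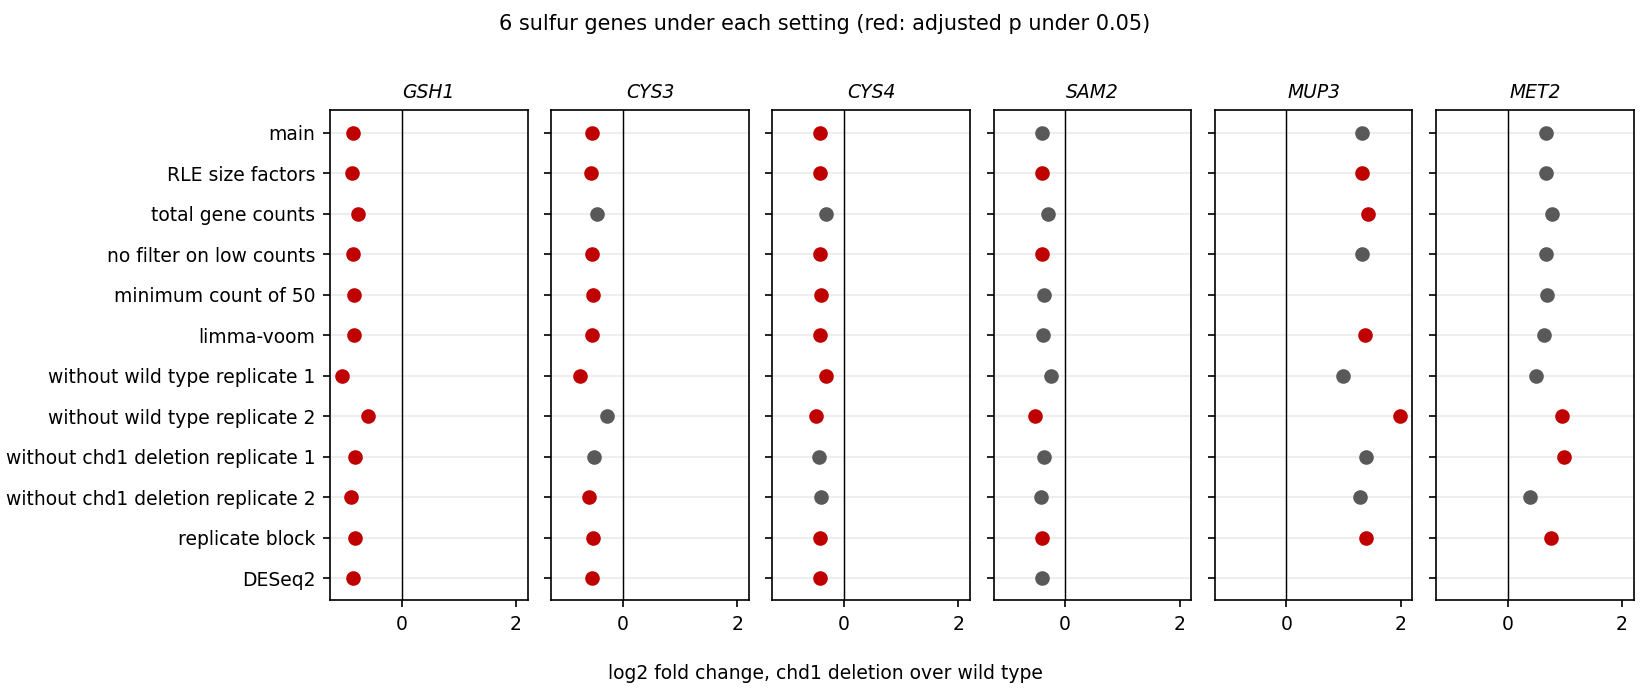
Log2 fold change, chd1 deletion over wild type (x axis), of GSH1, CYS3, CYS4, SAM2, MUP3 and MET2 in the main fit and under each alternative (y axis); red points have an adjusted p under 0.05, and no point is drawn where a setting gave no adjusted p. GSH1 is red in every setting, while the other 5 genes change sides of the threshold in some.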

How the data were processed

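Total RNA from 4 libraries was compared. Per the labels' protocols RNA was extracted with hot acid phenol, made into libraries with a kit intended for small RNA and sequenced on a HiSeq instrument. CASAVA 1.8, TopHat and sacCer3 are named in the submitters' processing notes; for the counting program, gene annotation, use of strand and multiply mapped reads, details were not given in the sources used here. The authors deposited raw read counts per gene with a transcript length, per the file headers; these were used unchanged, and the intron tables were not used here. Of 5816 gene identifiers, 5813 were found in the R64 annotation; the counted length exceeded the coding length for 5757 of the genes.

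Groups came from the titles. Genotypes were compared by edgeR's quasi-likelihood test (4.0.16, R 4.3.3) after TMM scaling and filterByExpr (minimum count 10). Genotype was the sole term, and p-values were adjusted by Benjamini-Hochberg over all genes at 0.05. Standard errors are the fold change over the root of F, and estimates are log2 fold changes of deletion over wild type. Levels between genes were compared as CPM divided by the counted length in kb. DESeq2 1.42.0, limma-voom (limma 3.58.1), other scalings and filters, a replicate block and leaving out each library were alternatives. Motifs were sought as exact letters on both strands; the 500-base window was added after the data were seen. All 30 genes may be named; those with an unadjusted p under 0.05, the pairs SAM1 and SAM2 and SAM3 and MMP1, and the regulators are given by library, and STR2, MET8, MHT1 and MUP1 were added after their values were seen. The genes, lists and steps were chosen with earlier results of these data known.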

Additional observations from a re-analysis of the deposited data

How the results depend on the processing

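The number of sulfur genes lower, 3 in the main fit, was 4 with RLE size factors, with no filter on low counts and with the replicate block, 3 with DESeq2, limma-voom and a minimum count of 50, and 1 with total gene counts. The number higher, 0 in the main fit, was 1 with RLE size factors, total gene counts and limma-voom, MUP3 in each, and 2 with the replicate block, MUP3 (adjusted p = 0.0123) and MET2 (0.0139). Same-numbered libraries deviated together with a correlation of 0.013 across genes, and the labels state no pairing, so the block was not used as a paired analysis. Leaving out 1 library at a time gave 1 to 3 lower and 0 to 2 higher. The sign of the estimate was kept for 28 of 30 genes with total gene counts and for 26 of 30 without wild-type replicate 2. The members' median of -0.016 was -0.17 with a minimum count of 50, under which 18 of them were tested. DESeq2 gave 10 of the 30 an adjusted p.

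Over all genes, 92 were higher and 168 lower. With total gene counts these were 176 and 65, with DESeq2 29 were higher, and with the replicate block 165 and 259. Without 1 library at a time, 58 to 213 were higher and 70 to 364 lower; there the spread comes from fewer libraries, and the lone library is assumed to vary like the other genotype's pair. The cause of the other shifts was not tested. Genes with few reads, such as MUP3, STR3 and MET8, have wide intervals, and intervals and limits cover counting error and the spread of 2 libraries per genotype.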
